A study of Mus musculus with 12 samples.

Results

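Olfactory marker protein, the hallmark of mature olfactory sensory neurons, and 9 nuclear factors that establish these neurons or control which odorant receptor gene they use were followed in the mouse olfactory epithelium over 2 circadian cycles in constant darkness. The genes were Omp, Lhx2, Ldb1, Emx2, Ebf1, Ebf2, Ebf3, Ebf4, Kdm1a and Atf5, chosen by symbol with earlier results of these data known. All 10 were measured among the 19937 genes of the array, each by 1 probe with a single symbol. Tissue came from 48 male C57BL/6 mice that had been held in light and dark and then moved to constant darkness. Each time point was 1 pool of total RNA from 4 mice on 1 Affymetrix array. The second cycle comprised the 6 pools from CT36 to CT56, and the first cycle the 6 pools from CT12 to CT32, at steps of 4 h (CT, circadian time). Subjective night comprised the phases 12, 16 and 20 h of both cycles, and subjective day the phases 0, 4 and 8 h. All mice were untreated and of 1 strain, and the labels give no age. Because each time point is a single pool, the spread behind every p-value is that between pools, not between single mice.

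A mature olfactory sensory neuron expresses a single odorant receptor allele out of a very large family. In mice, LHX2 and EBF proteins bind enhancers of receptor genes, and LDB1, which is recruited by LHX2, joins these enhancers across chromosomes into a hub at the active receptor gene. The demethylase LSD1, encoded by Kdm1a, is needed for a first receptor gene to be switched on. The new receptor protein then triggers an unfolded protein response in which Atf5 mRNA is translated, and this feedback stabilises the choice and lets the neuron mature and express Omp.

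The pools were much alike, with Pearson correlations between arrays of 0.964 to 0.995 over all probes and column medians of 7.81 to 7.92 on the log2 scale. CT56 had the lowest mean correlation with the other pools, 0.9749, and CT32 the next lowest, 0.9813. Values are the deposited log2 intensities, which depend on the probe, so levels are compared between pools and never between genes. A few bright marker probes of the tissue are given as examples. The probes of Cnga2 and Stoml3, which encode an ion channel subunit and a scaffold protein of sensory neurons, averaged 12.59 and 13.73. The probe of Cyp2g1, an enzyme of the supporting cells, averaged 13.70. Other probes listed for mature neurons were dimmer, such as Ncam2 at 8.22 and Cidea at 7.87. Probes listed for glands and for fibroblasts, Bpifa1 and Dcn, averaged 13.61 and 11.80. Such levels depend on the probe and do not test the tissue label. The number of arrays limits the precision of every value below.

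The first comparison was between the cycles and concerned a drift of levels with time spent in darkness. All 10 genes read lower in the second cycle, with a median difference of -0.12 log2 against -0.03 for all genes, of which 61.7% read lower. Among the 630 genes with a mean of 11 or more, a range that holds 8 of the 10, the median was -0.05 and 66.5% read lower. None of them passed an adjusted p of 0.05, and neither did any other gene (0% of 19937). At an unadjusted p under 0.05, 5 of the 10 read lower, namely Atf5, Omp, Ebf2, Lhx2 and Ebf4. This was so for 8.94% of all genes, and for 21.3% of the genes with a mean of 11 or more, which include these 5. The same 5 were lower in 6 of 6 pairs of pools taken 24 h apart, as were 6.1% of all genes and 19.2% of those with a mean of 11 or more. In bulk tissue, fewer neurons and less RNA per neuron cannot be told apart, and the labels do not say whether arrays were run in batches, so time in darkness and such a batch cannot be told apart either.

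**Figure D1:**
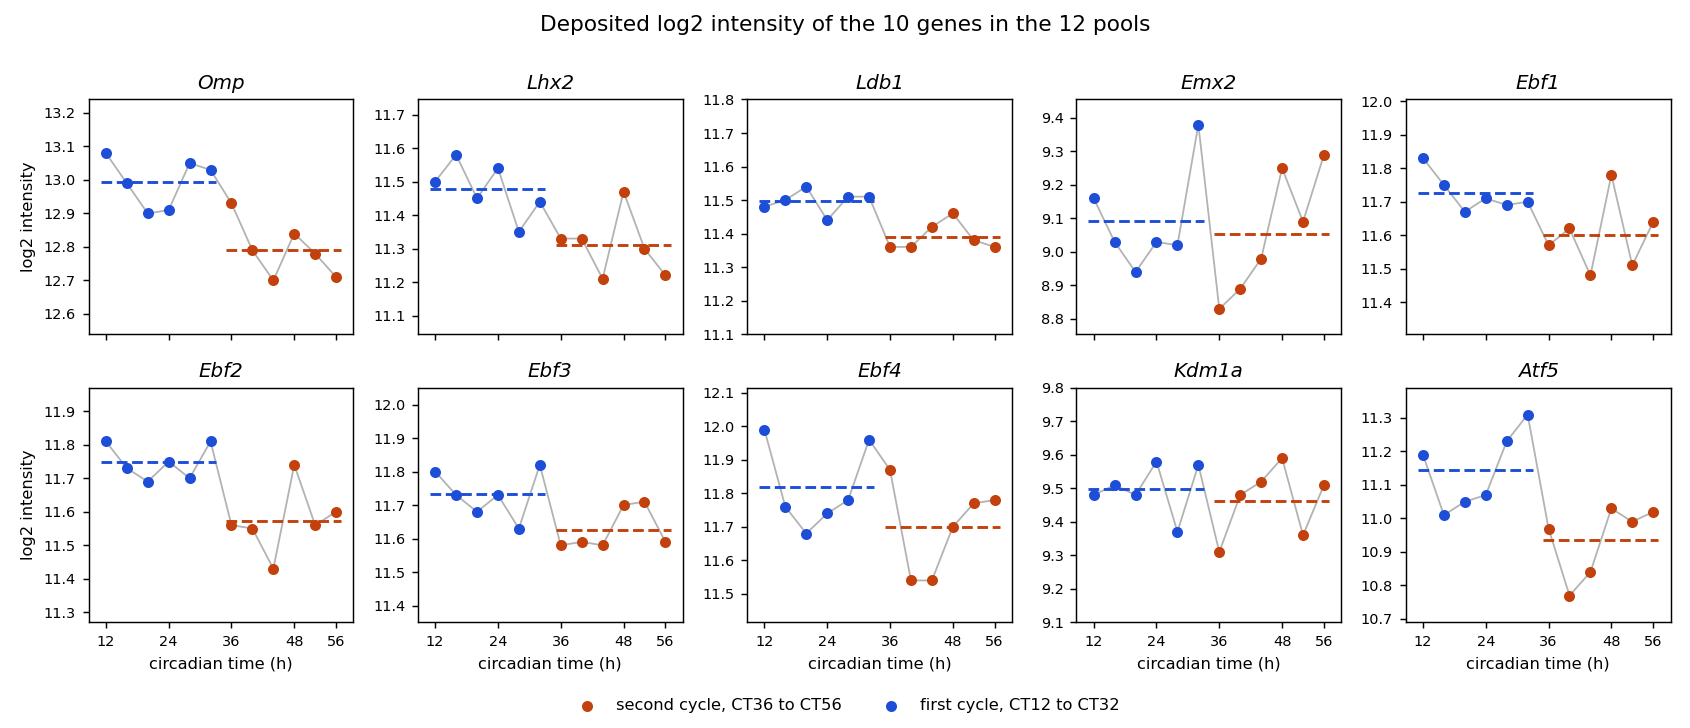
Deposited log2 intensity of each gene against circadian time, 1 point per pool, with dashed lines at the mean of the 6 pools of each cycle. Every panel spans the same 0.7 log2 units. The second cycle means of Omp, Lhx2, Ldb1, Ebf1, Ebf2, Ebf3 and Atf5 lie below those of the first. Inside the first cycle range lie 2 second cycle pools of Ebf3 and of Atf5, and 1 of each other gene just named. Emx2 and Kdm1a cover similar ranges in both cycles.

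Omp encodes a small cytoplasmic protein that modulates the odour response of mature neurons. It read 12.93, 12.79, 12.70, 12.84, 12.78 and 12.71 at CT36 to CT56, against 13.08, 12.99, 12.90, 12.91, 13.05 and 13.03 at CT12 to CT32. The cycles met only at their edges: 5 of 6 second cycle pools lay below the lowest first cycle pool, and the exception was CT36. The second cycle averaged 12.79 ± 0.08 and the first 12.99 ± 0.07 (SD, n = 6 each), a difference of -0.20 ± 0.05 (SE; 95% interval -0.32 to -0.09), that is 13.1% less signal. In limma this had an unadjusted p of 0.00254 and an adjusted p of 0.304, and 0.79% of all genes had a smaller p. The difference between cycles held 66.6% of the variance of Omp over the 12 pools and phase of the day 23.2%. For the median gene these shares were 6.2% and 56.6%, since phase has 6 levels and takes up much of the variance of 12 pools, and for the median gene with a mean of 11 or more they were 20.2% and 44.3%.

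Lhx2 encodes a LIM homeodomain factor without which, in mice, sensory neurons do not mature. Its lowest, median and highest values were 11.21, 11.32 and 11.47 in the second cycle, against 11.35, 11.47 and 11.58 in the first. Again 5 of 6 second cycle pools lay below the whole first cycle, with CT48 as the exception. The difference was -0.17 ± 0.05 (SE; limma, adjusted p = 0.304) and was negative in 6 of 6 pairs. Ldb1, whose product holds LIM homeodomain factors and distant enhancers together, was the steadiest of the 10, with a range over all pools of 0.18 log2 and an SD of 0.07 that only 3.1% of all genes undercut. It read 11.36, 11.37 and 11.46 (lowest, median, highest) in the second cycle, against 11.44, 11.50 and 11.54 in the first. The pools of the cycles were again nearly separate, since 5 of 6 second cycle pools were below the lowest first cycle pool. How many of all genes separate this far was not counted. The difference was -0.11 ± 0.05 (SE; limma, adjusted p = 0.39), and cycle held 72.1% of its small variance.

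**Figure D2:**
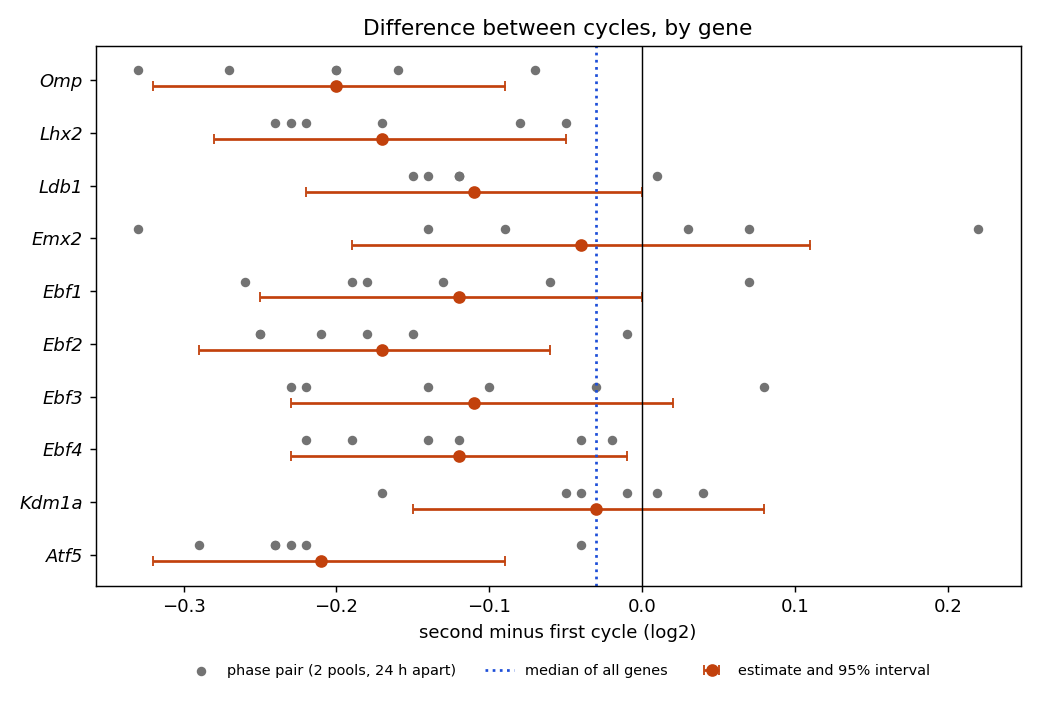
Second minus first cycle on the log2 scale. Grey points are the 6 pairs of pools taken at the same phase, orange points the limma estimates with 95% intervals, and the dotted line is the median of all genes at -0.03. The intervals of Omp, Lhx2, Ebf2, Ebf4 and Atf5 lie below 0, before adjustment over all genes.

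The 4 EBF genes encode helix-loop-helix factors with binding sites in Omp and other genes of olfactory neurons. They read lower in the second cycle by similar amounts. Ebf2 had values of 11.43, 11.56 and 11.74 (lowest, median, highest) in the second cycle, against 11.69, 11.74 and 11.81 in the first, and 5 of 6 second cycle pools were below all first cycle pools. Its difference of -0.17 ± 0.05 (SE) was negative in 6 of 6 pairs (limma, adjusted p = 0.304). Ebf1, which is also required for B cells, read 11.48, 11.60 and 11.78 in the second cycle, against 11.67, 11.71 and 11.83 in the first, a difference of -0.12 ± 0.06 (SE; limma, adjusted p = 0.383). For Ebf1 too, 5 of 6 second cycle pools lay below the first cycle range. At CT48 both genes read close to their first cycle levels, at 11.78 for Ebf1 and 11.74 for Ebf2. Ebf3 read 11.58, 11.59 and 11.71 in the second cycle, against 11.63, 11.73 and 11.82 in the first, a difference of -0.11 ± 0.06 (SE; limma, adjusted p = 0.445). Of its second cycle pools, 4 of 6 lay below the first cycle range. Ebf4 read 11.54, 11.74 and 11.87 in the second cycle, against 11.68, 11.77 and 11.99 in the first. The cycles overlapped widely for Ebf4, where 2 second cycle pools, CT40 and CT44, lay below the first cycle range. Its difference was -0.12 ± 0.05 (SE) and was negative in 6 of 6 pairs (limma, adjusted p = 0.356). EBF proteins share a closely related DNA-binding domain, and whether the probes bind more than 1 family member was not tested.

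Because several of these factors read lower together and EBF proteins bind DNA, the promoters of the 10 genes were searched for an EBF core, CCCNNGGG, and a homeodomain core, TAATTA. Both read the same on either strand, so a match counts for both. RefSeq promoters of GRCm38.p6 were at hand for 8 genes, 13 in all, and the 250 bases before the gene start were read. The EBF core was in 2 of the 13, against 11.8% of 32851 promoters of that length, and the homeodomain core in 0 of the 13, against 4.84%. The stretches with an EBF core, in capitals, are shown because they belong to 1 EBF gene and to the enhancer bridge Ldb1, on the minus strand at chr7:137314446-137314522 and chr19:46039622-46039724.
Ebf3: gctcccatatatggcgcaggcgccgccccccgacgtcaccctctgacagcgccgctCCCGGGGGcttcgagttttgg
Ldb1: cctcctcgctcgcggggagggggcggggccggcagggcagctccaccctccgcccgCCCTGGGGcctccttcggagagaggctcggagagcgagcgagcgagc
Each stretch runs up to the base before the gene start, with the core beginning 21 bases before it in Ebf3 and 47 in Ldb1. A match describes these letters and not a bound site.

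Atf5 and Kdm1a belong to the feedback on receptor choice. Atf5, the transcription factor translated when the first receptor protein is made, read 10.97, 10.77, 10.84, 11.03, 10.99 and 11.02 at CT36 to CT56, against 11.19, 11.01, 11.05, 11.07, 11.23 and 11.31 at CT12 to CT32. It was lower in 6 of 6 pairs, and 4 of 6 second cycle pools lay below the lowest first cycle pool. The difference was -0.21 ± 0.05 (SE), or 13.4% less signal (limma, unadjusted p = 0.00222, adjusted p = 0.304). Only mRNA was measured, whereas ATF5 protein in these neurons is set at translation. Kdm1a read 9.31, 9.48, 9.52, 9.59, 9.36 and 9.51 at CT36 to CT56, against 9.48, 9.51, 9.48, 9.58, 9.37 and 9.57 at CT12 to CT32. The ranges of the cycles coincided almost fully. Its difference was -0.03 ± 0.05 (SE; 95% interval -0.15 to 0.08; limma, adjusted p = 0.808), and it was negative in 4 of 6 pairs. With quantile normalization the estimate for Kdm1a was 0.001.

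Emx2, a homeodomain factor needed in mice for the normal expression of many receptor genes, varied most of the 10, over 0.55 log2. It read 8.83, 8.89, 8.98, 9.25, 9.09 and 9.29 at CT36 to CT56, against 9.16, 9.03, 8.94, 9.03, 9.02 and 9.38 at CT12 to CT32. The cycles overlapped, and the pairs went either way, from -0.33 at phase 12 h to 0.22 at phase 0 h. The difference was -0.04 ± 0.07 (SE; 95% interval -0.19 to 0.11; limma, adjusted p = 0.841). It was 0.017 without the pair CT12 and CT36.

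The pair differences of each gene were also set against those of Omp on the same arrays, as a description without a test. The difference of Ldb1 lay above that of Omp in 6 of 6 pairs, by 0.10 ± 0.05 log2 (SD, 6 pairs). That of Kdm1a lay above it in 5 of 6 pairs, by 0.17 ± 0.11, and that of Emx2 in 5 of 6, by 0.16 ± 0.19. Among the other factors the mean gap ran from -0.00 ± 0.05 for Atf5, which lay above Omp in 3 of 6 pairs, to 0.10 ± 0.14 for Ebf3. By pair, all 10 genes were lower at phases 12, 16 and 8 h, 8 at phases 20 and 4 h, and 6 at phase 0 h, where the median of the 10 was -0.02. Of all genes, 48.4%, 62.5% and 62.1% were lower at phases 12, 16 and 8 h, 61.7% and 48.2% at phases 20 and 4 h, and 54.4% at phase 0 h, so the 6 of 10 there lay near the share of all genes. CT48, the second cycle pool of that phase, thus read near the first cycle for most of them.

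In each of the lists of related genes, 0 genes passed the adjusted threshold between the cycles. Their counts are read against all genes, of which 61.7% read lower and 8.94% did so at an unadjusted p under 0.05. Among genes with a mean of 9 to 10 these shares were 69.2% and 17.4%. They were 66.5% and 21.3% among genes with a mean of 11 or more, where most of the mature neuron genes lay. Of 19 other mature neuron genes, 18 read lower in the second cycle, 10 of them at an unadjusted p under 0.05, with a median of -0.17. Examples were Cngb1, a subunit of the transduction channel, at 11.01 ± 0.08 in the second cycle and 11.23 ± 0.04 in the first, and Adcy3, the adenylyl cyclase of the pathway, at 11.76 ± 0.08 in the second cycle and 11.98 ± 0.07 in the first (SD, n = 6 each). Ano2, a calcium-gated chloride channel, differed by -0.19 ± 0.05 and Faim2, an inhibitor of cell death, by -0.24 ± 0.06 (SE; limma, adjusted p = 0.304 for each of these 4). The exception was Gng13, a G protein subunit named after its values were seen, at 0.15 ± 0.06. Of 14 immature neuron genes, 13 read lower and 10 did so at an unadjusted p under 0.05, with a median of -0.16. Among them were Gap43, a growth cone protein, at -0.22 ± 0.06, Tubb3, a neuronal tubulin, at -0.33 ± 0.08, and the axon growth genes Dpysl3 and Dpysl5 at -0.19 ± 0.05 and -0.21 ± 0.06 (SE; limma, adjusted p = 0.304 for each). The exception was Marcksl1, also named after its values were seen, at 0.29 ± 0.13. The mean of the mature list had r = 0.74 with Omp and that of the immature list r = 0.65, both descriptions over 12 pools that share array-wide variation. For the lists described below, this r ran from -0.51 for fibroblast, bone or fat to 0.42 for other nuclear factors of the neurons. It was -0.38 for the glands and -0.32 for motile cilia.

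**Figure D3:**
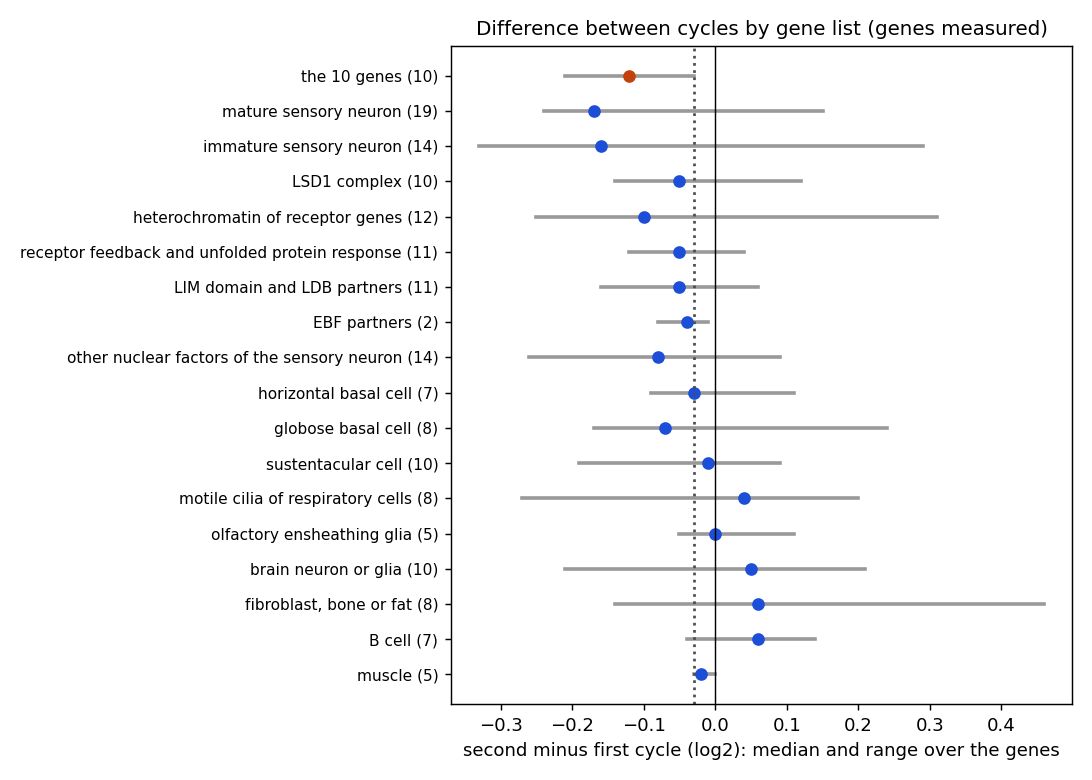
Second minus first cycle by gene list, with the median as a point and the range over genes as a bar, the number of measured genes in brackets, and the median of all genes as a dotted line. The 10 genes and both neuron lists have medians of -0.12, -0.17 and -0.16. The gland list, with a range of -0.52 to 1.10, is left out of the plot.

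Partners of the receptor choice factors were counted next. Of 10 measured genes of the complex in which LSD1 acts, 8 read lower and 2 at an unadjusted p under 0.05, the deacetylase gene Hdac1 at -0.14 ± 0.06 and the corepressor gene Rcor1 at -0.12 ± 0.05 (SE; limma, adjusted p = 0.336 and 0.36). These counts lay near the shares among genes with a mean of 9 to 10. Of 12 genes of repressive chromatin, 8 read lower, with a median of -0.10. At an unadjusted p under 0.05, 4 read lower and 1 higher. Ehmt1 and Ehmt2, whose products form the histone methyltransferase pair GLP and G9a, differed by -0.25 ± 0.05 and -0.15 ± 0.05 (SE; limma, adjusted p = 0.304 and 0.315). The DNA methyltransferase gene Dnmt3a differed by -0.20 ± 0.06, while Cbx3, a heterochromatin protein gene, was higher at 0.31 ± 0.10 (SE; limma, adjusted p = 0.304 for each). Among 14 other nuclear factors of these neurons 11 read lower, with a median of -0.08, and 4 did so at an unadjusted p under 0.05. They were Nhlh1, a helix-loop-helix factor of immature neurons, at -0.26 ± 0.06, Trim66, a chromatin reader, at -0.21 ± 0.06, Myt1l, a repressor of non-neuronal genes, at -0.17 ± 0.05, and Ctcf, an architectural factor, at -0.13 ± 0.06 (SE; limma, adjusted p from 0.304 to 0.364). Of 11 genes of the unfolded protein response 9 read lower and 0 reached an unadjusted p of 0.05, with a median of -0.05. The one with the smallest p was Herpud1, a degradation factor of the endoplasmic reticulum, at -0.12 ± 0.09 (SE; limma, adjusted p = 0.607). Of 11 LIM domain genes and LDB partners 10 read lower, with a median of -0.05. Of these, 1 did so at an unadjusted p under 0.05, Lmo2, at -0.16 ± 0.06 (SE; limma, adjusted p = 0.318). The EBF partner genes Zfp423 and Zfp521 had a median of -0.04, and Zfp423 differed by -0.08 ± 0.05 (SE; limma, adjusted p = 0.554).

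Markers of other cells had medians nearer to 0 than the neuron lists. They were -0.01 for 10 genes of the supporting cells, -0.03 for 7 of horizontal basal cells and -0.07 for 8 of globose basal cells. They were 0.04 for 8 genes of motile cilia, 0.00 for 5 of ensheathing glia, -0.02 for 5 of muscle and 0.01 for 8 of the glands. They were 0.05 for 10 genes of brain cells, 0.06 for 8 of fibroblast, bone or fat and 0.06 for 7 of B cells. The last 2 lists bear on Ebf1 and Ebf2, which B cells and connective tissue also use. The mean of the fibroblast, bone or fat list, as a deviation from its level over all pools, ranged from -0.15 to 0.31 in the second cycle and from -0.13 to 0.06 in the first, and that of the B cell list from -0.21 to 0.22 in the second cycle and from -0.17 to 0.06 in the first. The B cell probes were dim, with means between 5.84 and 7.65. Those of muscle lay between 6.52 and 8.30, of horizontal basal cells between 7.80 and 9.20, and of globose basal cells between 7.42 and 9.51. Probes of mature neurons lay between 7.87 and 13.73, and those of supporting cells between 8.82 and 13.70. The lists were not matched for level. A median near 0 did not mean steady pools. The gland list mean ranged from -0.46 to 1.43 in the second cycle and from -1.05 to 0.74 in the first. That of motile cilia ranged from -0.19 to 0.36 and from -0.29 to 0.19. For the mature neuron list these ranges were -0.11 to 0.05 in the second cycle and -0.02 to 0.11 in the first. The part of other cells in the values of the 10 genes was not tested. Single marker genes chosen by the smallest p were Krt8 at -0.19 ± 0.06 for the supporting cells, Kit, Insm1 and Neurod1 at -0.16 ± 0.06, -0.17 ± 0.06 and 0.24 ± 0.10 for globose basal cells, and Cav1 at 0.11 ± 0.06 for horizontal basal cells. They were Rsph1 and Tekt1 at -0.27 ± 0.06 and -0.13 ± 0.05 for motile cilia, Aqp5 at -0.16 ± 0.06 for glands, and Npy at 0.11 ± 0.06 for ensheathing glia. They were Snap25 and Gad1 at -0.21 ± 0.06 and 0.21 ± 0.09 for brain cells, Lum at 0.46 ± 0.13 for fibroblasts, Cd22 at 0.14 ± 0.07 for B cells and Mylpf at -0.03 ± 0.06 for muscle (SE throughout). Cav1, Npy, Cd22 and Mylpf did not reach an unadjusted p of 0.05 in limma. The adjusted p of these single markers ran from 0.304 to 0.863. Snap25, a synaptic vesicle fusion gene, is also used by sensory neurons.

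The next comparison was by time of day. No member passed the test for a 24 h cosine, which 0.0251% of all genes passed, and 1 had an unadjusted p under 0.05, as had 3.54% of all genes. That gene was Ebf4, with an amplitude of 0.14 ± 0.05 log2 (SE, 12 pools) and a fitted peak at CT 8.6 (limma, unadjusted p = 0.0218, adjusted p = 0.996). It read highest at CT12, CT32 and CT36, at 11.99, 11.96 and 11.87, and lowest at CT40 and CT44, both 11.54. Amplitudes of the other 9 ranged from 0.02 to 0.14, among them Omp at 0.06 ± 0.05, Lhx2 at 0.04 ± 0.05, Atf5 at 0.13 ± 0.05 and Emx2 at 0.14 ± 0.06 (SE), beside a median of 0.06 for all genes. With phase of the day as a factor, a form added after the data were seen, Ebf4 was again the one member at an unadjusted p under 0.05 (limma, 0.0289, adjusted 0.225). Over the alternatives of the cosine fit its unadjusted p ranged from 0.00952 to 0.0791 and its adjusted p was at least 0.46. The cosine fit had no term for the cycle. With the cycle as a block, Atf5 also had an unadjusted p under 0.05 (limma, 0.0144, adjusted 0.984).

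Kdm1a read 9.59 and 9.58 at CT48 and CT24, the highest phase, and 9.36 and 9.37 at CT52 and CT28, the next phase in time. Its values were least alike at phase 12 h, with 9.31 at CT36 and 9.48 at CT12. Phase held 81.8% of its variance, a share that 92.8% of all genes fell short of. As a factor, phase gave an unadjusted p of 0.165 and an adjusted p of 0.394 in limma for Kdm1a, so its differences by phase did not pass.

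**Figure D4:**
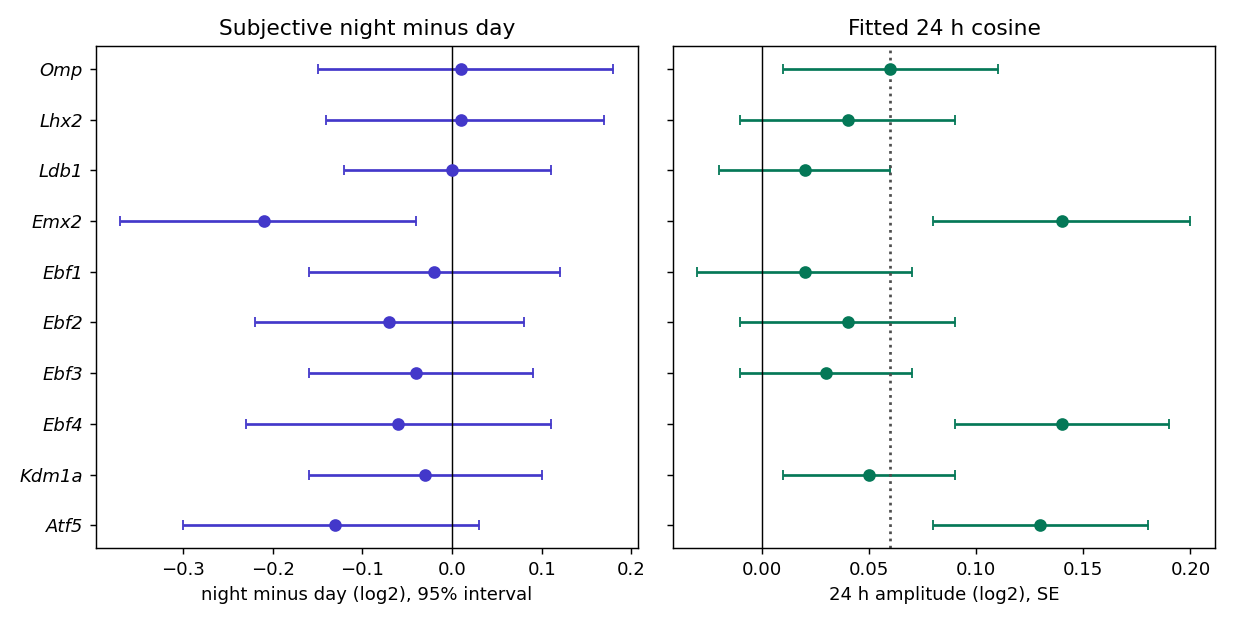
Left, subjective night minus subjective day for each gene with 95% intervals from limma. Right, amplitude of the fitted 24 h cosine with its SE, with the median of all genes, 0.06, as a dotted line. Emx2 is the gene whose night minus day interval lies away from 0 before adjustment.

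In subjective night against subjective day, 0 members passed, as did 0% of all genes. Emx2 read lower at night at an unadjusted p under 0.05, as did 5.69% of all genes. Its lowest, median and highest values were 8.83, 8.96 and 9.16 at night, against 9.02, 9.17 and 9.38 by day, so the groups overlapped. The night minus day difference was -0.21 ± 0.08 (SE; limma, unadjusted p = 0.0154, adjusted p = 0.497). Its highest pools, 9.38 and 9.29, were CT32 and CT56, the 2 pools that correlated least with the rest, and without them the difference was -0.127. For Omp the difference was 0.01 ± 0.08 (SE; 95% interval -0.15 to 0.18), and for Lhx2 0.01 ± 0.07 (-0.14 to 0.17). Atf5 had -0.13 ± 0.08 (-0.30 to 0.03), and the other 6 lay between -0.07 for Ebf2 and -0.00 for Ldb1. Quantile normalization turned the sign for Ldb1, Ebf1, Ebf3 and Kdm1a. A change of the night minus day difference between the cycles was found for 0 members in limma, with unadjusted p from 0.177 to 0.786.

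Likeness among the 10 genes was described by correlation. Over the 12 pools the 6 pairs of EBF genes had Pearson r from 0.47 to 0.90 (Spearman rho 0.34 to 0.89), highest for Ebf1 with Ebf2. After the mean of each cycle was removed, r for these 6 pairs ran from 0.28 for Ebf1 with Ebf4 to 0.85 for Ebf1 with Ebf2. Omp had r from 0.63 to 0.78 with the 7 genes other than Emx2 and Kdm1a (Spearman rho 0.55 to 0.70), which became -0.05 to 0.66 within cycles. The r of Omp with Emx2 was 0.10 and with Kdm1a -0.10. These are descriptions over pools that share tissue and array variation. The 5 genes most like Omp by Pearson r over 12 pools, out of all genes, were Snx29 (0.976), Faim2 (0.971), Gnb1 (0.946), Rab11fip4 (0.938) and Slc25a25 (0.935). For each other gene the nearest was Ap3d1 for Lhx2 (0.962), Klf7 for Ldb1 (0.950), Fmn2 for Emx2 (0.930), Sdf4 for Ebf1 (0.942) and Dennd1a for Ebf2 (0.962). It was AU040320 for Ebf3 (0.921), 1700088E04Rik for Ebf4 (0.963), Gnptab for Kdm1a (0.968) and Fzd8 for Atf5 (0.975).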

How the data were processed

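Total RNA (Trizol) was converted to biotin-labelled single-stranded DNA over a pair of synthesis rounds, the later one random-primed, per the labels' protocols. The authors deposited log2 intensities, 1 value per probe and pool. The log2 scale was read from their range of 3.48 to 14.47, and the tool affy is named per the submitters' processing notes, with no role. How background was corrected and arrays normalized is not given in the sources used here. Values were used as deposited. Of 34760 probes, 21640 had 1 symbol, 1321 several, and 11799 were not listed. Of those with 1 symbol, 21553 matched RefSeq by Entrez ID and 0 symbols changed. A gene was represented by its highest-mean probe.

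Linear models (limma 3.58.1, R 4.3.3) covered all 19937 genes, with Benjamini-Hochberg adjustment over all genes. The cycle difference was fitted with phase as a factor, rhythms as a 24 h cosine and sine, and night minus day as 2 groups. The last 2 fits had no cycle term, so a cycle difference added to their residual spread. The 10 genes, the 18 gene lists, the tests and the alternatives were chosen with earlier results of these data known. The text names all members, the genes nearest to each by r (5 for Omp, 1 for the others), and per list up to 4 genes with the smallest unadjusted p under 0.05 in the cycle comparison, else the one with the smallest p. Figures were drawn with matplotlib 3.10.9.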

Additional observations from a re-analysis of the deposited data

Results flagged for a closer look

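For each of the 10 genes, the extreme pools of the second cycle, the first cycle, the night and the day were examined, which made 40 groups of 6. In 2 groups an extreme pool's distance to its neighbour took up more of the range than Dixon's 95% criterion of 0.625 allows, and chance gives about 2.0. Ebf4 at CT32 read 11.96 against 11.78 in the next of the day pools (0.687). Kdm1a at CT36 read 9.31 against 9.48 in the next of the night pools (0.772).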

How the results depend on the processing

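In the cycle comparison, 9 or 10 of the 10 genes read lower and 0 were called under each of 23 alternatives, of which 15 gave values distinct from each other and from those reported, because leaving out either pool of a pair leaves the same 5 pairs and a linear trend with phase as a factor equals the cycle difference. Omp lay between -0.229 and -0.179 and Atf5 between -0.242 and -0.184, with adjusted p of at least 0.0822 and 0.0828. The number of the 10 genes at an unadjusted p under 0.05 ran from 4 to 8, with 8 under a trended robust prior. It was 4 with quantile normalization and with median centring, where Ebf4 no longer had such a p. The unadjusted p of Ebf4 ranged from 0.013 to 0.125 over the alternatives (limma). Over all genes, 1 was called with that prior, 1 without dim genes, 17 with array weights and 0 to 18 without each pool (18 without CT12 or CT36). Counts at an unadjusted p under 0.05 ran from 1416 without CT32 or CT56 to 4231 with array weights. Emx2 read 0.010 with array weights, 0.000 as a linear trend with cosine and -0.093 to 0.017 without each pool, and Kdm1a 0.001 after quantile normalization. For the rhythm, 0 genes were called at 22 h, 2 at 26 h, 16 with phase as a factor and 3 to 5 without each pool. Members at an unadjusted p under 0.05 numbered 0 at 26 h, 2 with cycle as a block and 0 to 2 without each pool. For night minus day they numbered 0 with array weights, 0 without CT32 and CT56, 2 with cycle as a block and 1 to 2 without each pool, and 4 genes in place of 8 read lower after quantile normalization. There Ldb1 read 0.026, Ebf1 0.019, Ebf3 0.002 and Kdm1a 0.039. With array weights Lhx2 read -0.046 and Ldb1 0.020, and Lhx2 -0.013 without CT32 and CT56. Without each pool, Omp ranged from -0.022 to 0.054, Lhx2 from -0.021 to 0.051, Ldb1 from -0.021 to 0.015 and Ebf1 from -0.053 to 0.016. The causes were not tested. The labels give no replicate numbers, and the cycle comparison pairs pools by phase.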
